A study of Mus musculus with 30 samples.

Results

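Prostaglandins are lipid mediators that cells make from arachidonic acid. Cyclooxygenases (Ptgs1 and Ptgs2) turn arachidonic acid into the unstable intermediate prostaglandin H2, terminal synthases turn that intermediate into the individual prostaglandins, and each prostaglandin acts on receptors of its own at the surface of cells. In the brain, prostaglandin D2, made by Ptgds, is known for promoting sleep through its receptor Ptgdr, and prostaglandin E2, made by Ptges, is known for raising body temperature in fever through the receptor Ptger3 in the preoptic hypothalamus. The 6 genes followed here were chosen by name: every non-control probe annotated to Ptgs1, Ptgs2, Ptgds, Ptges, Ptger3 or Ptgdr was taken, which gave 10 probes for 6 of the 28146 genes named on the array.

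The RNA came from hypothalamic tissue blocks of mice kept in an ultradian light schedule of 3.5 h light and 3.5 h dark, and the brains were collected in cycle 17, in the light phase. Each array held the RNA of 1 mouse, on 1-colour Agilent whole mouse genome arrays, and 30 arrays were analysed: 7 from Per3 5/5 mice (labelled Boxhill), 8 from Per3 4/4 mice (labelled Coach) and 15 from wild-type (WT) mice. In both knock-in lines an exon of the circadian gene Per3 had been exchanged for its human counterpart, which carries either 5 or 4 copies of a tandem repeat, so that the human segment was present in every cell. The study describes the mice as males on a C57BL/6 background, and the WT and knock-in lines had all passed through a cross with mice carrying a ubiquitous Cre recombinase and were each kept by breeding homozygous pairs, so that differences between lines apart from the repeat cannot be told apart from those of the genotype. The Per3 5/5 mice and WT mice 1 to 7 were measured in run 1, and the Per3 4/4 mice and WT mice 8 to 15 in run 2, whose scanner files have another layout. Each genotype was therefore compared with the WT mice of its own run, and the 2 comparisons share no array.

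Levels are given as log2 of the background-subtracted intensity relative to the 75th percentile of the same array, so a level of 0 is the brightness of that percentile and each step of 1 is a doubling. The 75th percentile lay between 752 and 1546 intensity units (median 941) in Per3 5/5, between 907 and 1091 (median 966) in WT of run 1, between 347 and 1370 (median 1060) in Per3 4/4 and between 490 and 1260 (median 875) in WT of run 2. Brightness differs between probes for reasons unrelated to RNA amount, so no order of RNA amount between genes is drawn from it, and a summed level of a list weighs bright probes most. Precision is limited by how many mice each group had. The limma p-values set a difference against the spread between arrays within groups, estimated over all 4 groups together and moderated across probes.

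Of the 30 arrays, 2 went against the description of the mice as males. Per3 4/4 arrays 6 and 7 had Xist, a transcript of the inactive X chromosome, at 1.78 and 1.52, while it was at most -4.47 on the other 28 arrays (probe A_51_P145453). The Y-linked gene Ddx3y (probe A_51_P402994) was at -8.51 and -8.09 on these arrays and at 0.66 or higher on all others. Another Ddx3y probe (A_52_P1083441) differed by run. It was above background on every array of run 1 (-3.15 to -1.07) and on no array of run 2 (-8.64 to -6.22), so it cannot tell arrays 6 and 7 from the others of their run. Values of Per3 4/4 are given with both arrays and, where a result rests on them, also without. WT array 10 stood apart in another way: among the WT arrays of run 2 it had the highest summed level of genes of cortex and hippocampus (98.4, against a median of 33.2) and the lowest of hypothalamic neuron markers, mostly neuropeptides (44.3, against a median of 333), where a summed level adds up intensities relative to the 75th percentile. WT array 14 had a summed level of pituitary hormone genes of 987, against a median of 7.37 in its group.

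Since the results turn on Ptgs2 and Ptger3, whose probes differed in how often they were detected, the first 30 of the 60 bases of their probes are printed, with positions in mouse build mm9 as the array annotation gives them. Both probes of Ptgs2 lie on the plus strand of chromosome 1, at chr1:151954744-151954803 (probe A_51_P254855, printed at 10 spots on each array) and at chr1:151954416-151954475 (probe A_52_P224760, 1 spot). The main Ptger3 probe lies at chr3:157307508-157307567 and another spans an intron, from 157230799 to 157267977 on the same strand of chromosome 3, so that its full length pairs only with spliced RNA.
Ptgs2 A_51_P254855: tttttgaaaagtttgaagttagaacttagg
Ptgs2 A_52_P224760: ctgaagaattgctttcttacttaaaaacaa
Ptger3 A_51_P520718: ctaaatgttcagctagagctgttaaaagga
Ptger3 A_52_P677744: cgccgctattgataatgatgttgaaaatga
The start of the Ptgs2 gene is also shown, since Ptgs2 is known as a gene that neuronal activity and inflammation switch on quickly. The 30 bases come from RefSeq (build GRCm38.p6, chr1:150100034-150100063, plus strand), and the capitals mark a core of the cAMP response element (CGTCA) that overlaps an E-box (CACGTG), at bases 14 to 22 after the annotated start.
Ptgs2 start: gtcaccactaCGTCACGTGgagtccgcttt
Searched on both strands in windows of 300 bases around the starts of 32851 genes and transcripts, CGTCA occurred in 20.8%, CACGTG in 7.15% and the overlapping form CGTCACGTG in 0.451% of windows. A match of letters is a description and does not show that a factor was bound there.

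Of the 10 probes, 6 were bright enough to be tested. Ptgs1, Ptgds and Ptges (1 probe each) were well above background on 30 of 30 arrays by the scanner software's mark, the main Ptger3 probe on 29 and the 10-spot Ptgs2 probe on 23. An array counted where any spot carried the mark, outlier spots included, so a probe with 10 spots counts more readily than one with 1 spot. With outlier spots left out, Per3 5/5 array 4 and WT array 11, both among the 23, had 0 Ptgs2 spots above background. The intron-spanning Ptger3 probe was well above background on 11 arrays and was tested because 5 of the 8 Per3 4/4 arrays detected it. The single-spot Ptgs2 probe was well above background on 8 arrays and was not tested. Both probes of Ptgdr, the receptor of prostaglandin D2 (probes A_52_P292354 and A_52_P36889, on the minus strand of chromosome 14), and a further Ptger3 probe (A_52_P160481) were well above background on 0 of 30 arrays, and no fold is given for them.

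The 6 tested probes stand for 5 of the genes, and 0 of them reached an adjusted p below 0.05 in limma in either comparison. In Per3 5/5, 0 of 29953 probes on the whole array passed (0%), and in Per3 4/4 4 probes did (0.0134%). At an unadjusted p of 0.05 the counts over all probes were 1849 (6.17%) in Per3 5/5 and 519 (1.73%) in Per3 4/4, and 0 of the 6 member probes were among them. The groups overlapped for every member probe in both comparisons, whereas they did not overlap for 52 probes (0.174%) of the array in Per3 5/5 and for 4 probes (0.0134%) in Per3 4/4. The difference between the effects of the genotypes passed the adjusted threshold for 0 probes (0%) and the unadjusted threshold for 893 (2.98%), none of them a member. In size, the changes of the 5 probes other than the intron-spanning one had a median of 0.20 in Per3 5/5 and 0.08 in Per3 4/4 on the log2 scale, against medians of 0.13 and 0.10 over all probes tested.

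**Figure D1:**
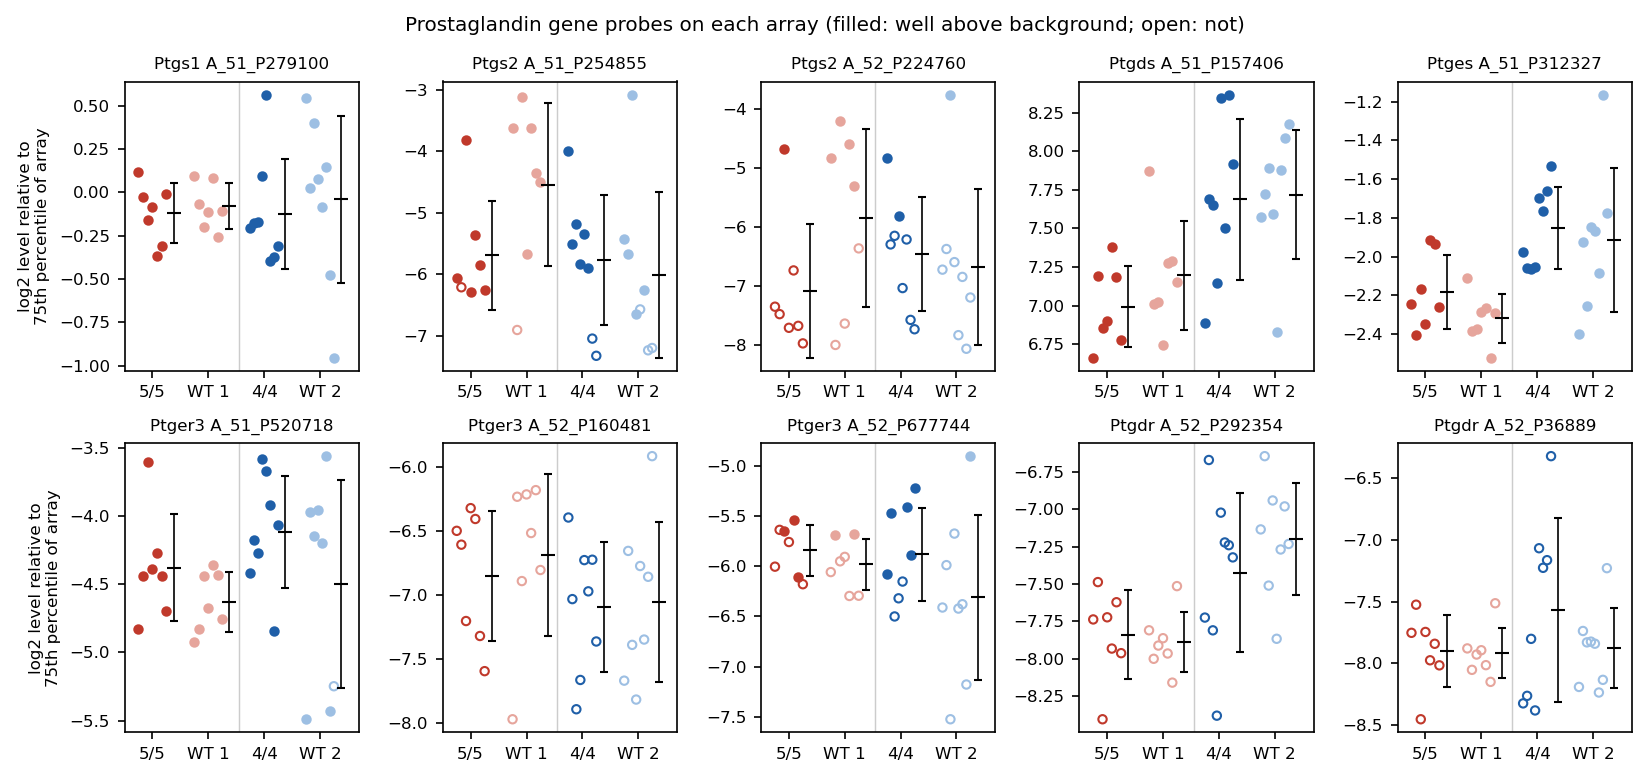
Level of each of the 10 probes of the prostaglandin genes on every array (log2 relative to the array's 75th percentile) for Per3 5/5, WT of run 1 (WT 1), Per3 4/4 and WT of run 2 (WT 2), with the group mean and SD as bars. Filled points are arrays where any spot of the probe was well above background. The groups of each run overlap in every panel, and the Ptgdr panels hold open points only.

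Of the cyclooxygenases, Ptgs1 is the form that most cells make all the time. It was at -0.37 on the lowest, -0.09 on the median and 0.12 on the highest of the 7 Per3 5/5 arrays, and at -0.26, -0.11 and 0.10 on those of WT of run 1 (probe A_51_P279100, chr2:36107644-36107703, plus strand). In run 2 the values were -0.40, -0.19 and 0.56 in Per3 4/4 and -0.95, 0.05 and 0.54 in WT. The groups lay over one another in both runs, with a wider spread in run 2. The change was -0.04 ± 0.17 (SE) in Per3 5/5 and -0.08 ± 0.16 in Per3 4/4, with unadjusted p of 0.817 and 0.604 and adjusted p of 1.00 in both (limma). Confidence intervals of 95% ran from -0.38 to 0.30 and from -0.40 to 0.24, so that changes within these bounds remain compatible with the values of these mice. The value in Per3 4/4 was 0.01 without Per3 4/4 arrays 6 and 7 and -0.22 with array weights, in which arrays that deviate more count less (unadjusted p = 0.0385).

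Ptgs2 is the inducible cyclooxygenase, present in the brain mainly in excitatory neurons of the forebrain and raised by their activity. On the 10-spot probe it was at -6.29 on the lowest, -6.06 on the median and -3.82 on the highest Per3 5/5 array, and at -6.91, -4.35 and -3.12 on those of WT of run 1. Of the 7 WT arrays, 5 were above all Per3 5/5 arrays except array 3, while the lowest array of all 14 was a WT array. The mean level was -5.69 ± 0.89 (SD, n = 7) in Per3 5/5 and -4.54 ± 1.33 (n = 7) in WT, a change of -1.15 ± 0.60 (SE), which did not pass the test (limma unadjusted p = 0.0625, adjusted p = 0.796, interval from -2.37 to 0.06). In Per3 5/5, 6 of 7 arrays lay below the WT mean. On Per3 5/5 arrays 1, 2, 4 and 7 only 1, 0, 0 and 2 of the spots kept were well above background. The size of the change therefore depends on values at background and is uncertain. The change was negative on 3 of the 4 slides that held both genotypes, from -1.65 to 0.17. Both ends rest on 1 array on one side: slide 2 (-1.65) held 1 WT array, and slide 1 (0.17) held Per3 5/5 array 3 alone. With 1 array left out the change ran from -1.55 without WT array 2 (unadjusted p = 0.0113) to -0.92 without WT array 3 (unadjusted p = 0.144), it was -1.47 without Per3 5/5 array 3 (unadjusted p = 0.020), and it was -0.45 after normexp background correction, in which dim values are drawn together (unadjusted p = 0.0375). It was -1.42 with array weights (unadjusted p = 0.0028, adjusted p = 0.245, limma).

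In run 2, Ptgs2 was at -7.33, -5.67 and -3.99 on the lowest, median and highest Per3 4/4 arrays and at -7.24, -6.41 and -3.07 on those of WT. Among Per3 4/4 arrays, 6 of 8 were above the WT mean, and the highest array of the run was a WT array, array 10. The means were -5.77 ± 1.06 (n = 8) and -6.01 ± 1.35 (n = 8), a change of 0.24 ± 0.56 (SE) that did not pass the test (limma unadjusted p = 0.665, adjusted p = 1.00, interval from -0.89 to 1.38), with 4 of the 8 WT arrays lacking any spot above background once outlier spots were left out. It was higher in Per3 4/4 on 3 of 4 slides, from -0.64 to 0.79. Without WT array 10 the change was 0.66, without Per3 4/4 array 1 it was -0.01 and without Per3 4/4 arrays 6 and 7 it was 0.48. With array weights it was 0.69 and with normexp -0.04. The difference between the effects of the genotypes was -1.40 ± 0.82 (SE, limma unadjusted p = 0.0972, adjusted p = 1.00), and it ran from -2.11 with array weights (unadjusted p = 0.0041) to -0.41 with normexp.

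The 10 spots of the Ptgs2 probe give the noise of reading 1 array, while the spread between arrays also holds dissection, extraction, labelling and hybridization along with the mice themselves. The SD over spots of 1 array had a median of 0.35 in Per3 5/5, 0.09 in WT of run 1, 0.23 in Per3 4/4 and 0.25 in WT of run 2, whereas the SD between arrays of a group was 0.89, 1.33, 1.06 and 1.35. Its pooled SD between arrays of 1.18 was higher than that of 99.5% of the probes tested, which had a median of 0.34. The median number of spots well above background, spots marked as outliers left out, was 2 in Per3 5/5, 10 in WT of run 1, 8 in Per3 4/4 and 1 in WT of run 2. It was 0 on 2 Per3 5/5 arrays, 1 WT array of run 1, 2 Per3 4/4 arrays and 4 WT arrays of run 2, so that the low end of the scale is set by background. The other Ptgs2 probe rose and fell with the 10-spot probe: over 30 arrays, with group means removed, Pearson's r was 0.93 and Spearman's rho 0.87 (permutation p = 1e-05 for each, the smallest that the permutations can give), with an r of 0.97 in run 1, 0.91 in run 2 and 0.90 without the 2 arrays farthest from the median. This other probe was well above background on 8 of 30 arrays, so no order is read among the dim arrays. Since only 1 Per3 5/5 array and 4 WT arrays detected it in run 1, and 2 Per3 4/4 arrays and 1 WT array in run 2, no fold is given for the single-spot probe.

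**Figure D2:**
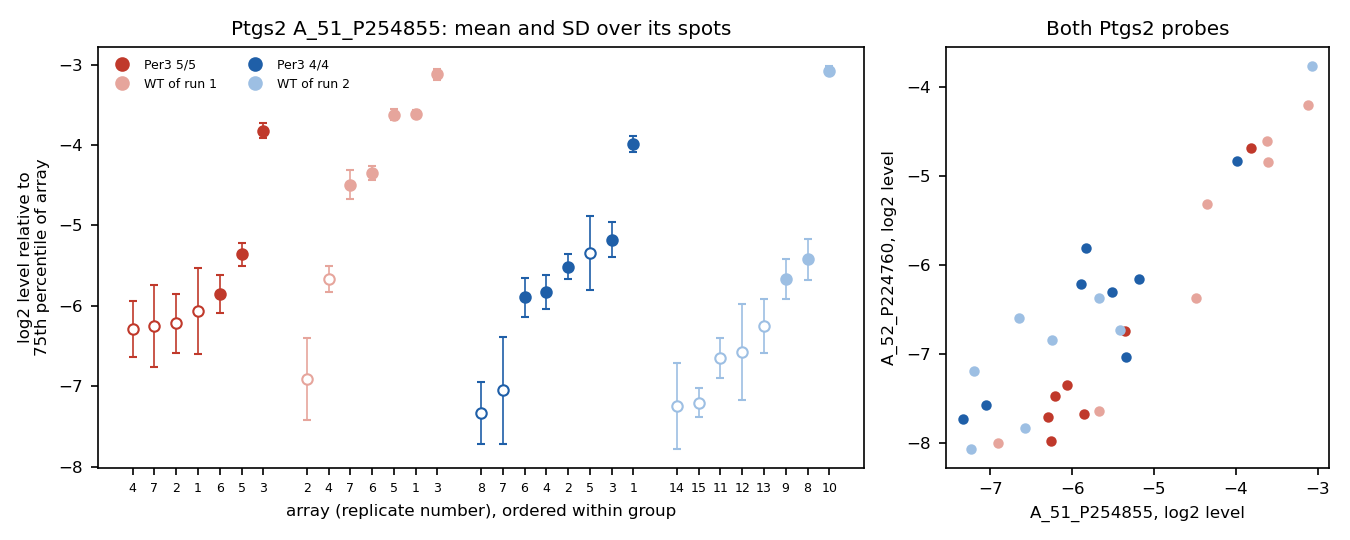
Left, Ptgs2 on each array, ordered within its group: points are means over the spots of the 10-spot probe (log2 relative to the array's 75th percentile), bars are the SD over spots, and filled points are arrays with at least as many spots above background as not. Right, the level of the single-spot probe against that of the 10-spot probe on the 30 arrays, which rise together. The bars are short beside the range of a group but exceed the gaps between the dim arrays, with Per3 5/5 array 3 (-3.82), Per3 4/4 array 1 (-3.99) and WT array 10 (-3.07) at the top of their groups.

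Among the terminal synthases, Ptgds makes prostaglandin D2 and is one of the most abundant transcripts of the leptomeninges, the thin membranes that wrap the brain. It was at 6.66, 6.90 and 7.38 on the lowest, median and highest Per3 5/5 arrays and at 6.75, 7.15 and 7.87 on those of WT of run 1 (probe A_51_P157406, chr2:25322842-25323373, minus strand, spanning an intron). In run 2 it was at 6.89, 7.67 and 8.37 in Per3 4/4 and at 6.83, 7.80 and 8.18 in WT. In both runs the groups overlapped over most of their range. The change was -0.20 ± 0.21 (SE) in Per3 5/5, with 6 of 7 arrays below the WT mean, and -0.03 ± 0.20 in Per3 4/4, with adjusted p of 0.928 and 1.00 (limma). Without WT array 1 the Per3 5/5 value was -0.09. The 95% intervals ran from -0.64 to 0.23 and from -0.44 to 0.37. Without Per3 4/4 arrays 6 and 7 the second value was -0.11.

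Ptges is the inducible synthase of prostaglandin E2. Its probe (A_51_P312327, chr2:30747838-30747897, minus strand) was at -2.40, -2.24 and -1.91 on the lowest, median and highest Per3 5/5 arrays and at -2.52, -2.29 and -2.11 on those of WT of run 1. In Per3 4/4 it was at -2.06, -1.87 and -1.53, and in WT of run 2 at -2.40, -1.90 and -1.16. It had the smallest pooled spread of the 6 probes, 0.25, and its groups still overlapped. The changes were 0.14 ± 0.14 (SE) and 0.06 ± 0.13, with adjusted p of 0.920 and 1.00 (limma) and intervals from -0.14 to 0.42 and from -0.20 to 0.32. Without Per3 4/4 arrays 6 and 7 the value in Per3 4/4 was 0.02, and the Per3 5/5 value was 0.05 with normexp and 0.08 with array weights.

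Ptger3, a receptor of prostaglandin E2 that lowers cyclic AMP, was at -4.83, -4.44 and -3.60 on the lowest, median and highest Per3 5/5 arrays and at -4.92, -4.67 and -4.36 on those of WT of run 1 (probe A_51_P520718). In run 2 it was at -4.84, -4.12 and -3.58 in Per3 4/4 and at -5.49, -4.17 and -3.56 in WT. The medians of the knock-in groups were the higher ones, within ranges that overlapped. The change was 0.25 ± 0.26 (SE) in Per3 5/5 (unadjusted p = 0.340, adjusted p = 0.926) and 0.38 ± 0.24 in Per3 4/4 (unadjusted p = 0.123, adjusted p = 1.00, limma), and 0.47 without Per3 4/4 arrays 6 and 7. The Per3 5/5 value was 0.12 without Per3 5/5 array 3, 0.09 with normexp and 0.05 with array weights, and the Per3 4/4 value 0.24 without WT array 8, 0.09 with normexp and 0.07 with array weights. Its unadjusted p passed 0.05 without WT array 13 (0.52, unadjusted p = 0.0353) and with the slide as a fixed block (0.38, unadjusted p = 0.0436), while the adjusted p stayed at 0.831 and 0.999 (limma). The knock-in mean was the higher on 4 of 4 slides in each run, by 0.13 to 0.79 in run 1 and by 0.08 to 0.89 in run 2. In run 1, the 0.13 came from a slide with 1 WT array and the 0.79 from Per3 5/5 array 3 alone. The difference between the effects was -0.13 ± 0.35 (SE). The intron-spanning probe was detected on 3 Per3 5/5 and 2 WT arrays in run 1 and on 5 Per3 4/4 arrays and 1 WT array in run 2. Since it was tested only through its detection in Per3 4/4, its change there is not given as a result. Unlike the Ptgs2 probes, both tested Ptger3 probes did not vary together. Over 30 arrays, with group means removed, Pearson's r was 0.01 and Spearman's rho 0.14 (permutation p = 0.959 and 0.522). The r was 0.35 in run 1 and -0.04 in run 2, and the values of the main probe therefore rest on that probe alone.

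For Ptgdr, both probes gave levels between -8.45 and -6.32 on all arrays, below what the scanner software took as above background. Whether Ptgdr RNA differed between genotypes was not detectable with these probes.

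The remaining genes of the pathway were followed in a list of 40, of which 38 had tested probes (56 probes). In Per3 5/5, 30 of these probes were higher and 26 lower than in WT, with 2 higher and 1 lower at an unadjusted p of 0.05 and 0 at an adjusted p of 0.05. The 3 probes are 5.36% of the list, near the 6.17% of all probes past that unadjusted threshold. The counts in Per3 4/4 were 32 higher and 24 lower, with 0 at either threshold. The median change of the list was 0.01 in Per3 5/5 and 0.02 in Per3 4/4, against -0.02 and 0.01 over all probes tested. By role, arachidonate release (16 probes) had 8 higher and 8 lower in Per3 5/5, terminal synthases (11 probes) 7 and 4, receptors (9 probes) 4 and 5, breakdown and transport (9 probes) 5 and 4, and the lipoxygenase branch (11 probes) 6 and 5. In Per3 4/4 the counts were 6 and 10 for arachidonate release, 7 and 4 for synthases, 5 and 4 for receptors, 9 and 0 for breakdown and transport (5 genes, by 0.02 to 0.37) and 5 and 6 for the lipoxygenase branch, with 0 past the unadjusted threshold.

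The largest change in the list was that of Ptger2, a receptor of prostaglandin E2 that raises cyclic AMP. It was at -4.60, -4.40 and -3.25 on the lowest, median and highest Per3 5/5 arrays and at -5.25, -4.80 and -4.58 on those of WT of run 1 (probe A_51_P249215, above background on 30 of 30 arrays). In Per3 5/5, 6 of 7 arrays were above every WT array of the run, and the remaining one lay just below the highest of them. The change was 0.82 ± 0.21 (SE, limma unadjusted p = 0.000457, adjusted p = 0.760), and over the alternatives to the processing it ran from 0.28 with normexp to 0.93, with adjusted p from 0.10 to 0.947. Ptger2 in Per3 4/4 gave 0.33 ± 0.19 (unadjusted p = 0.10), with 3 of 8 arrays above every WT array of run 2, it was 0.13 with normexp and 0.11 with array weights, and the difference between the effects was 0.49 ± 0.28 (unadjusted p = 0.0955, adjusted p = 1.00).

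Ptgis, the synthase of prostacyclin, gave 0.40 ± 0.17 (SE) in Per3 5/5 (unadjusted p = 0.0246, adjusted p = 0.796, limma) and 0.06 ± 0.16 in Per3 4/4, and with normexp the Per3 5/5 value was 0.15. Alox5, the lipoxygenase that starts leukotriene synthesis, gave -0.43 ± 0.19 in Per3 5/5 on probe A_51_P247249 (unadjusted p = 0.0293, adjusted p = 0.796) and -0.01 and 0.03 on its other probes, so that its probes disagree. The first value was -0.23 without WT array 1, -0.22 with normexp and -0.09 with array weights. Among probes above background on every array of the run, the next largest differences were as follows. The prostaglandin transporter Slco2a1 gave 0.31 in Per3 5/5 and 0.34 in Per3 4/4, and Mgll, which frees arachidonic acid from an endocannabinoid, gave -0.38 in Per3 5/5 and -0.24 in Per3 4/4 on probe A_52_P609778, none past the test. Another Mgll probe (A_51_P139920) gave -0.32 in Per3 5/5, and -0.16 with array weights. In Per3 4/4 the prostaglandin reductase Ptgr1 gave 0.37 ± 0.22, the thromboxane receptor Tbxa2r -0.37 ± 0.19 and the thromboxane synthase Tbxas1 -0.24 ± 0.13 (unadjusted p of 0.106, 0.0601 and 0.0725). Several values in Per3 4/4 depended on single arrays: Slco2a1 was 0.16 without Per3 4/4 array 3 and 0.52 without array 7, Ptgr1 0.18 and Mgll -0.11 without array 5, and Tbxas1 -0.16 without WT array 8. With array weights Slco2a1 was 0.04 and Ptgr1 0.08 in Per3 4/4, and Mgll -0.18 in Per3 5/5, while Slco2a1 in Per3 4/4 was 0.60 without arrays 6 and 7.

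**Figure D3:**
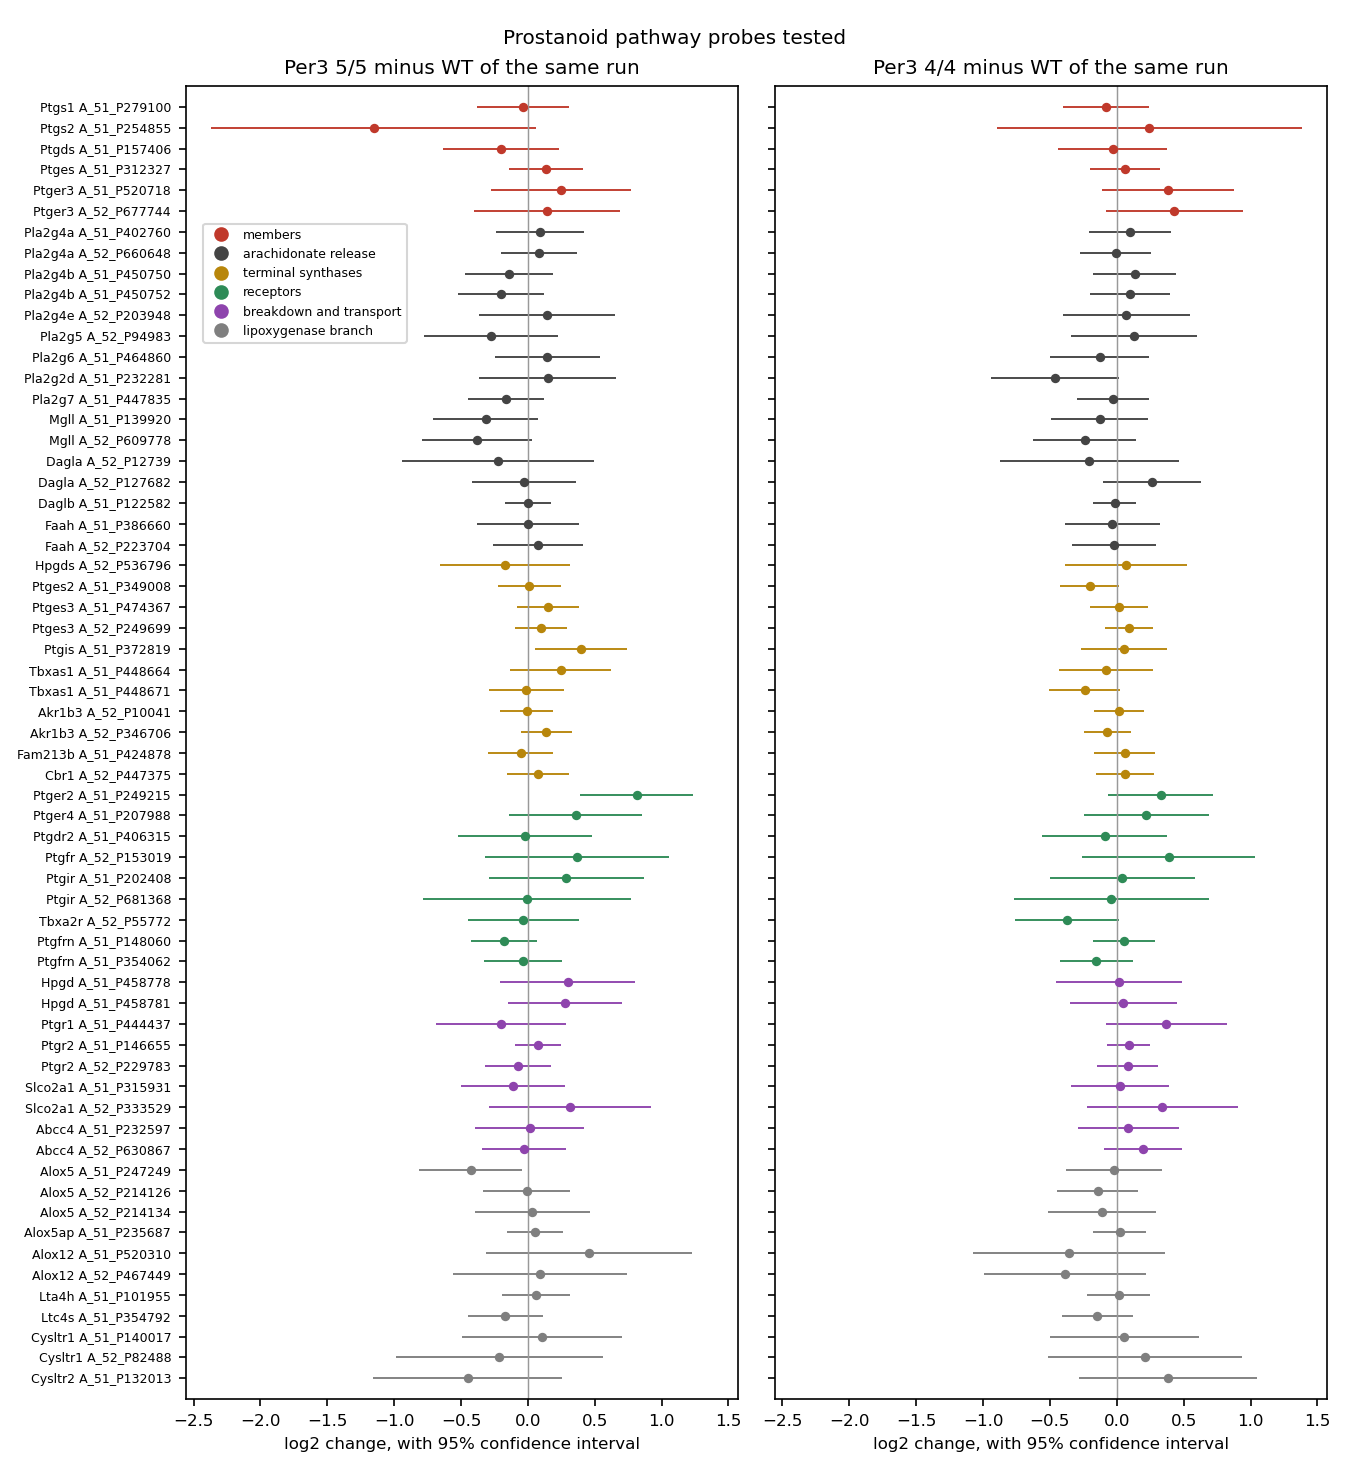
Change of each tested probe of the prostaglandin pathway in Per3 5/5 (left) and Per3 4/4 (right) against the WT mice of the same run, as log2 change with its 95% confidence interval, coloured by role. Most intervals include 0, with Ptgs2 lowest (-1.15) and Ptger2 highest (0.82) in Per3 5/5. The Ptger3 probe A_52_P677744 is dim and entered through its detection in Per3 4/4.

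The blocks of tissue can hold several cell types in unequal parts, and in bulk RNA fewer cells of a type and less RNA per cell cannot be told apart. The 6 member probes were therefore set against 10 lists of marker genes across the mice, with the mean of each of the 4 groups removed, which gave 60 relations. Of these, 8 passed an adjusted p of 0.05 (permutation within groups, Benjamini-Hochberg over the 60), 1 of them that of the dim intron-spanning Ptger3 probe. The permutations did not keep the arrays of a slide together, so these p-values take no account of slides. When tested again, 4 relations passed without the 2 arrays farthest from the median of the list, 3 within run 1 alone and 2 within run 2 alone.

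Ptgs2 followed the markers of cortex and hippocampus, a list of excitatory forebrain genes such as Neurod6, Slc17a7 and Nrgn. Pearson's r was 0.82 and Spearman's rho 0.67 over 30 arrays (permutation p = 1e-05 and 0.00023, adjusted p = 3e-04 and 0.0046), with an r of 0.72 without the 2 arrays farthest from the median, 0.89 in run 1 and 0.77 in run 2. The within-run values had adjusted p of 0.0108 and 0.0690. In the genotype comparisons, all 15 probes tested of this list had lower means in Per3 5/5 (median change -0.48, and -0.29 without WT array 3), with 3 at an unadjusted p of 0.05, against 6.17% of all probes, and 0 at an adjusted p. In Per3 4/4, where the mean of Ptgs2 was the higher one, 11 of 15 were lower (median change -0.19), with 0 at either threshold, and this rests on WT array 10: without it 7 of 15 were lower and the median was 0.04. Its summed level was 29.4, 33.7 and 67.3 on the lowest, median and highest Per3 5/5 arrays and 32.8, 74.1 and 103 on those of WT of run 1, and 25.8, 28.3 and 62.8 in Per3 4/4 and 24.9, 33.2 and 98.4 in WT of run 2. The probe of Nrgn, the brightest of the list, supplied 66.7% of the summed intensity and was above background on 30 of 30 arrays, and none of the list's genes with a probe was below background on every array. In each of the 4 groups the array with the highest summed level was also the one with the most Ptgs2: Per3 5/5 array 3, WT array 3, Per3 4/4 array 1 and WT array 10. On WT array 3 the only Nrgn spot was marked as an outlier, and its value (6.34) enters the sum but not the relation. The part of these genes in the Ptgs2 values was not tested.

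Ptgs2 also followed the activity-regulated genes, which neurons switch on within minutes of firing, such as Fos, Arc and Nr4a1. Here r was 0.71 and rho 0.59 (permutation p = 0.00019 and 0.00171, adjusted p = 0.0038 and 0.0205), 0.56 without the 2 farthest arrays, 0.92 in run 1 and 0.68 in run 2, where it did not pass (adjusted p = 0.224). Of the 18 probes of the list, 18 were lower in Per3 5/5 (median -0.16, 3 at an unadjusted p of 0.05, against 6.17% of all probes) and 17 in Per3 4/4 (median -0.43, 2 at an unadjusted p of 0.05, against 1.73% of all probes), with 0 past the adjusted threshold. Without WT array 10, 12 of 18 were lower in Per3 4/4 (median -0.23). Its summed level was 18.4, 18.4 and 27.7 in Per3 5/5 and 16.3, 26.8 and 39.5 in WT of run 1, and 12.3, 17.5 and 22.4 in Per3 4/4 and 13.6, 18.9 and 117 in WT of run 2. Its brightest probe was that of Nr4a1, with 24.4% of the summed intensity, and the highest sum belonged to WT array 10. Against the hypothalamic neuron markers Ptgs2 ran the other way (r = -0.62, rho = -0.57, permutation p = 0.00133 and 0.00124, adjusted p = 0.020 and 0.0186), with an r of -0.86 in run 2, where it passed (adjusted p = 0.0090), -0.10 in run 1 (adjusted p = 0.820) and -0.44 without the 2 farthest arrays (rho = -0.50, permutation p = 0.0153 for r, adjusted p = 0.115), where it did not pass.

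**Figure D4:**
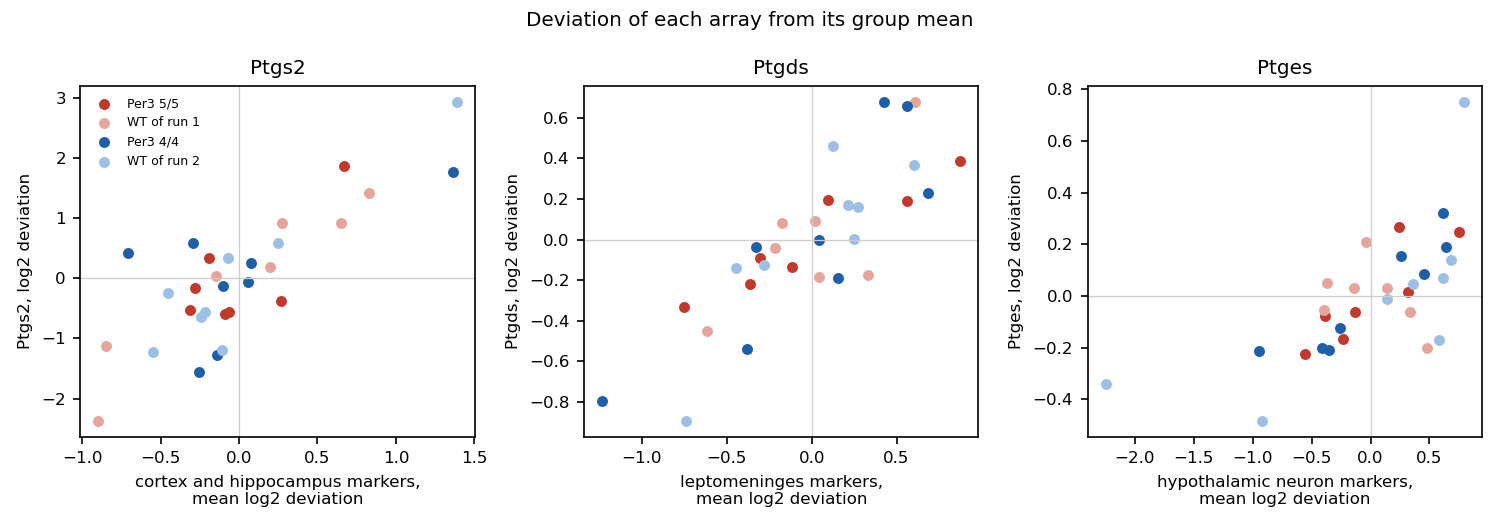
Ptgs2 against the cortex and hippocampus list, Ptgds against the leptomeninges list and Ptges against the hypothalamic neuron list: each point is 1 of 30 arrays, as its deviation from its group mean (log2 on both axes), coloured by group. Points rise together in the Ptgs2 panel (r = 0.82), where WT array 10 lies at the upper right, and in the Ptgds panel (r = 0.83), while 1 WT array of run 2 lies far to the left in the Ptges panel (r = 0.68).

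Ptgds followed the leptomeninges list (13 genes, 18 tested probes, among them Slc6a13, Dcn and Aldh1a2). Pearson's r was 0.83 and Spearman's rho 0.82 over 30 arrays (permutation p = 1e-05 for each, adjusted p = 3e-04 and 6e-04), 0.80 without the 2 farthest arrays, 0.81 in run 1 and 0.86 in run 2, with adjusted p of 0.0108 and 0.0030 within the runs. Of the 18 probes, 14 were lower in Per3 5/5 (median -0.13) and 16 were higher in Per3 4/4 (median 0.18), with 0 and 2 at an unadjusted p of 0.05, against 6.17% and 1.73% of all probes. With 1 array left out the medians ran from -0.31 (without Per3 5/5 array 5) to -0.07 (without WT array 3) and from 0.05 (without Per3 4/4 array 5) to 0.38 (without Per3 4/4 array 1). The summed level was 16.3, 22.9 and 31.5 in Per3 5/5, 20.1, 24.2 and 35.5 in WT of run 1, 19.8, 35.3 and 49.8 in Per3 4/4 and 18.6, 30.7 and 45.1 in WT of run 2. The brightest probe, that of Dcn, gave 23.8% of the summed intensity. WT array 12 had the lowest Ptgds of its group (6.83) and the lowest leptomeninges sum (18.6). The choroid plexus, the tissue that makes cerebrospinal fluid and another known site of Ptgds, had medians of larger size: 16 of the 17 probes of its list were lower in Per3 5/5 (median -0.66, and -0.31 without WT array 1, 1 at an unadjusted p of 0.05) and 16 were higher in Per3 4/4 (median 0.70, 5 at an unadjusted p of 0.05), with 0 past the adjusted threshold. The counts at the unadjusted threshold are 5.88% and 29.4% of its probes, against 6.17% and 1.73% of all probes. The summed level of the choroid plexus list was 5.65, 7.77 and 9.72 in Per3 5/5, 8.06, 9.03 and 12.7 in WT of run 1, 5.47, 8.36 and 20.8 in Per3 4/4 and 3.86, 5.96 and 20.4 in WT of run 2, of which the brightest probe, that of Clic6, gave 43.0%. In Per3 4/4 it was 9.38 to 20.8 on arrays 1 to 4 (slides 1 and 2) and 5.47 to 7.34 on arrays 5 to 8 (slides 3 and 4). The WT arrays of the same slides gave 3.96 to 20.4 and 3.86 to 9.06. Across mice Ptgds did not pass against this list (r = -0.38, rho = -0.38, permutation p = 0.0866 and 0.0612, adjusted p = 0.306 and 0.245). The part of these cells in the Ptgds values was not tested.

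Ptges varied with the leptomeninges list too (r = 0.52, rho = 0.56, permutation p = 0.0032 and 0.00336, adjusted p = 0.0308 and 0.0288), and with the hypothalamic neuron markers (r = 0.68, rho = 0.72, permutation p = 0.00208 and 5e-05, adjusted p = 0.0250 and 0.0015). The first gave 0.57 in run 1, 0.52 in run 2 and 0.51 without the 2 farthest arrays and no longer passed in any of them (adjusted p = 0.326, 0.224 and 0.0618). The second was 0.68 without the 2 farthest arrays (adjusted p = 0.0090), 0.43 in run 1 and 0.73 in run 2, where it did not pass (adjusted p = 0.509 and 0.0919). In Per3 4/4 the deviations of Ptges from the group mean were -0.21 to -0.12 on arrays 1 to 4 (slides 1 and 2). On arrays 5 to 8 (slides 3 and 4) they were 0.09 to 0.32. The leptomeninges list gave -1.23 to 0.04 and 0.16 to 0.69, and the hypothalamic neuron list -0.95 to -0.26 and 0.26 to 0.64. The part of the slides in these relations was not tested. The main Ptger3 probe ran against the astrocyte list (r = -0.54, rho = -0.56, permutation p = 0.00441 and 0.00263, adjusted p = 0.0331 and 0.0263), with -0.58 in run 1, -0.55 in run 2 and -0.48 without the 2 farthest arrays (adjusted p = 0.326, 0.242 and 0.0528). The intron-spanning Ptger3 probe, above background on 11 of 30 arrays, also passed against the activity-regulated genes (r = -0.66, rho = -0.45, permutation p = 0.00359 and 0.0178, adjusted p = 0.0308 and 0.107), with -0.26 in run 1, -0.72 in run 2 and -0.40 without the 2 farthest arrays, where it no longer passed (adjusted p = 0.243). Most of its values lie at background, and nothing is read from this relation. Of the 14 hypothalamic neuron probes, 13 had higher means in Per3 5/5 (median 0.38, and 0.25 without Per3 5/5 array 6) and 11 in Per3 4/4 (median 0.30), the latter resting on WT array 10, without which 7 were higher (median -0.0035). The summed level was 115, 203 and 258 in Per3 5/5, 100.3, 124 and 179.6 in WT of run 1, 171 to 420.0 (median 301) in Per3 4/4 and 44.3 to 684 (median 333) in WT of run 2, and the brightest probe, that of the orexin gene Hcrt, gave 25% of it. Of the 20 astrocyte probes, 17 had lower means in Per3 5/5 (median -0.20) and 12 in Per3 4/4 (median -0.01, from -0.06 to 0.04 with 1 array left out), with 0 at an unadjusted p of 0.05 in either list and comparison. The summed level was 222 to 359 (median 324) in Per3 5/5, 277 to 367 (median 349) in WT of run 1, 162 to 229.7 (median 180) in Per3 4/4 and 145 to 222 (median 181) in WT of run 2, and the brightest probe, that of S100b, gave 35.1%. The part of these cells in the Ptges and Ptger3 values was not tested. For Ptgs1, 0 of the 10 lists passed. The 4 lists not yet described passed with no member and had 0 probes at an unadjusted p of 0.05 in either comparison: microglia had 8 of 16 probes lower in Per3 5/5 (median 0.01) and 14 lower in Per3 4/4 (median -0.22), endothelium 14 of 15 lower in Per3 5/5 (median -0.16, and -0.08 without WT array 4) and 8 in Per3 4/4 (median -0.04), oligodendrocytes 13 of 21 (median -0.13) and 8 (median 0.02, and -0.09 without WT array 10), and pituitary 4 of 8 (median 0.02) and 4 (median -0.33, and 0.37 without WT array 14). Of these medians, those under 0.05 in size turned in sign when 1 array was left out.

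**Figure D5:**
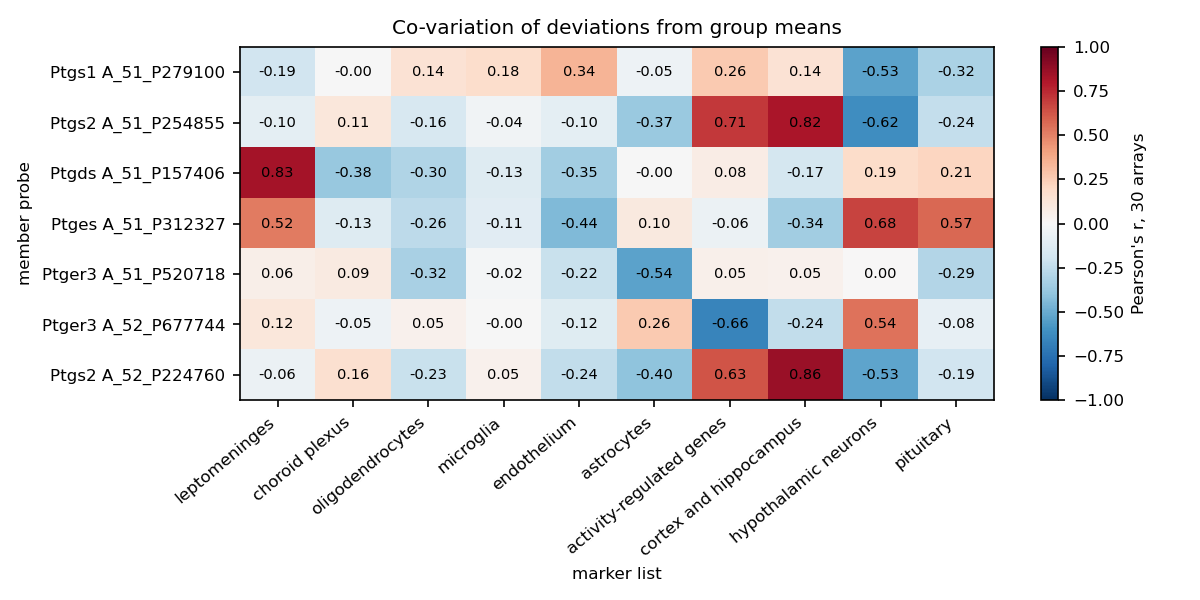
Pearson's r of each tested member probe, and of the single-spot Ptgs2 probe in the bottom line, with each of the 10 marker lists over 30 arrays, with group means removed (colour from -1 to 1). The highest values are those of Ptgds with leptomeninges (0.83) and of both Ptgs2 probes with cortex and hippocampus (0.82 and 0.86).

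The genes that varied most like each member over the 30 arrays, by Pearson's r of deviations from the group means, differed between members. For Ptgs2 they were Rasl10a and Itpka (r = 0.91 each), Wnt2, Cracdl (named 2010300C02Rik on the array) and Kalrn (0.90 each). Itpka, a kinase of inositol trisphosphate found in forebrain neurons, gave -1.33 ± 0.66 (SE) in Per3 5/5 and 0.03 ± 0.62 in Per3 4/4, and Cracdl gave -1.03 ± 0.44 and -0.12 ± 0.41, with unadjusted p of 0.0532 and 0.0265 in Per3 5/5 (limma). In Per3 5/5, Rasl10a gave -0.64 ± 0.45, Wnt2 -0.63 ± 0.44 and Kalrn -0.83 ± 0.46 (unadjusted p of 0.159, 0.160 and 0.0809, limma). Their values in Per3 4/4 were -0.24, 0.09 and -0.22. Over these 5, r ran from 0.91 (Cracdl) to 0.96 (Rasl10a) in run 1 and from 0.88 (Rasl10a) to 0.89 (Itpka) in run 2.

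For Ptgds the most alike were both probes of Slc6a13, a transporter of GABA in the meninges (r = 0.88 and 0.86), Itih2 (0.83), Asgr1 (0.82) and Islr (0.81). Slc6a13 is one of the 13 genes of the leptomeninges list. For Ptges they included Slc12a7 (0.84), Krt19 (0.82) and Pdzk1ip1 (0.80), and for Ptgs1 Gpm6b and Dazap2 (0.90 each), Rhot2, Phactr3 and Frs2 (0.89 each). Dazap2 had an r of 0.29 in run 1 and 0.94 in run 2, Frs2 0.53 and 0.93, and Pdzk1ip1 0.47 and 0.87. For the main Ptger3 probe they were Nbn (0.83), Nrcam, Cops4, Azi2 and Galnt14 (0.81 to 0.82), and for the intron-spanning probe St8sia6 and Tro (0.75 each), Dagla, Capn5 and Nlrx1 (0.73 to 0.74). In run 1 the genes of the intron-spanning probe had an r of 0.39, 0.31, -0.24, -0.10 and 0.22, in that order. In run 2 they ran from 0.78 to 0.83. These genes were picked as the most alike of all named probes tested, so their values are descriptions.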

How the data were processed

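Hypothalamic RNA (RNeasy kit, Cy3 label) was hybridized by the study's authors, and the authors deposited per array the spot intensities of Agilent Feature Extraction, which per the file headers were background-subtracted and detrended within the array, with nothing done between arrays. They also deposited log2 values which the authors, per their methods, had shifted to the 75th percentile. That table served as an alternative only: set against the scanner files, 13 of its 14 columns of run 1 matched another array of the same genotype and run, so array numbers here are those of the scanner files. It has missing values for 11502 probes in run 1.

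After removal of controls and of outlier spots, log2 intensities were taken relative to the 75th percentile of their array, and replicate spots were averaged per probe. A probe counted as well above background on an array where any of its spots, outlier spots included, carried the software's mark, and the 29953 of 41174 probes with a share of 0.5 or more of such arrays in any genotype were tested with limma 3.58.1 in R 4.3.3, as 4 groups of genotype and run over all 30 arrays, with Benjamini-Hochberg adjustment over the probes tested at 0.05. The fit was checked on simulated data. Co-variation used deviations from group means, 100000 permutations of arrays within groups, two-sided, and Benjamini-Hochberg adjustment over the relations (Python 3.11.15, SciPy 1.17.1, matplotlib 3.10.9). Slides were told apart by scan time. Summed levels of marker lists kept the value of a probe whose only spot was an outlier (Nrgn and Slc13a4, on 1 array each).

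Genes named were every probe of the 6 genes, pathway genes with an unadjusted p under 0.05 or among the 3 largest rises or falls above background on every array of the run, the 5 probes most alike to each member, and the gene with the brightest probe of each marker list. A result among the probes most alike to Ptges is not reported here. The members and lists were chosen with earlier results of these data known. Gene names are those of the array. 9 of 10 member accessions were found in a RefSeq table of GRCm38.p6. The alternatives were the slide as a random or fixed block, only the arrays of the run, a replicate block, normexp with an offset of 50 on median signals, quantile normalization, the percentile over probes above background on all arrays, the authors' table, 2 other filters, outlier spots kept, array weights, variance trend with robust moderation, the methods' t-test, each array left out (for medians of marker lists chosen after seeing the data), and Per3 4/4 arrays 6 and 7 left out. The rank product of the methods was not run.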

Additional observations from a re-analysis of the deposited data

Results flagged for a closer look

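In 3 of 24 groups of arrays checked over the tested member probes, the outermost array lay apart from its group beyond Dixon's 95% limit, which chance passes in about 1 of 20 groups. Ptgs2 was at -3.82 on Per3 5/5 array 3, with the next array of that genotype at -5.36. Ptgs2 was at -3.07 on WT array 10 of run 2, with the next at -5.42. Ptgds was at 6.83 on WT array 12 of run 2, with the next at 7.58. The changes without these arrays were -1.47 for Ptgs2 in Per3 5/5, 0.66 for Ptgs2 in Per3 4/4 and -0.16 for Ptgds in Per3 4/4.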

How the results depend on the processing

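No member probe passed the adjusted threshold of 0.05 in any alternative, array left out included. The number of probes of the whole array past it in Per3 5/5 (0) was 10 with array weights and 0 to 3 with 1 array left out (2 without Per3 5/5 array 5, 3 without WT array 7). In Per3 4/4 (4) it was 9 with the slide as a random block and with array weights, 8 with a variance trend, 7 with normexp, with probes above background on all arrays, with outlier spots kept and without Per3 4/4 arrays 6 and 7, 0 with only the arrays of the run and with the methods' t-test, and 2 to 8 with 1 array left out (2 without Per3 4/4 array 4 or WT array 8, 8 without Per3 4/4 array 7, 7 without WT array 9 or 11). For the difference (0) it was 0 to 2 (2 without Per3 5/5 array 5). The cause was not tested. With the replicate block in run 1, 0 probes passed in Per3 5/5 and Ptgs2 gave -1.15 ± 0.33 (SE, limma unadjusted p = 0.0072, adjusted p = 0.430). By the scanner-file numbers, 2 of 7 same-numbered pairs had deviations that correlated above 0.1, the highest at 0.40. Since 13 of 14 columns of run 1 carry another number in the authors' table, this check cannot decide whether mice were paired. The main fit takes the mice as unpaired, and in run 2 the genotypes share only 1 number.

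Changes of sign arose only in values that had not passed: in Per3 5/5 Ptgs1 with normexp (0.013), array weights (0.048) and arrays left out (-0.079 to 0.0018) and the intron-spanning Ptger3 probe with normexp (-0.068). For Per3 4/4 they were Ptgs2 with normexp (-0.036) and arrays left out (-0.0096 to 0.66), Ptgds with quantile normalization (0.0098) and arrays left out (-0.16 to 0.083), Ptges with array weights (-0.035) and arrays left out (-0.0056 to 0.17), Ptgs1 without arrays 6 and 7 (0.0051) and with arrays left out (-0.21 to 0.00078), and Mgll with array weights (0.0093). For the difference they were Ptgs1 without arrays 6 and 7 (-0.044) and with arrays left out (-0.040 to 0.17), Ptges (-0.033 to 0.14) and the main Ptger3 probe (-0.27 to 0.0089). Medians of marker lists in Per3 4/4 turned with arrays left out for cortex and hippocampus (-0.37 to 0.038), hypothalamic neurons (-0.0035 to 0.44) and astrocytes (-0.064 to 0.040). They also turned for oligodendrocytes, endothelium and pituitary in Per3 4/4, and for microglia and pituitary in Per3 5/5. Of the 8 relations to marker lists, 4 passed without the 2 farthest arrays, 3 in run 1 and 2 in run 2. Dim signal limits Ptgs2, Ptger3 and Ptgdr.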

Other observations

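In the deposited table of log2 values, 13 of the 14 columns of run 1 correlated best with the scanner file of another mouse of the same genotype, and 0 of the 16 columns of run 2 did. No column matched an array of another genotype, so the group comparisons hold the same mice in either numbering. The Per3 5/5 and WT values of single mice do depend on which numbering is used.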
